A study of Homo sapiens with 9 samples.

Results

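The response that 2 knockdowns of ceramide synthesis had in common was measured in Huh7, a human hepatocarcinoma cell line, by setting the mean of both knockdown groups against scramble siRNA. All 9 of the 9 arrays of the study entered this comparison, as 3 groups of 3 biological replicates. The groups were scramble siRNA, siRNA against the serine palmitoyltransferase genes SPTLC1, SPTLC2 and SPTLC3 (labelled SPTLC123), and siRNA against DEGS1. Every group received 20 nM siRNA in siLentFect lipid, the scramble group a single control sequence. The labels give 72 h after transfection, while the treatment protocol adds a medium with 1% serum at 72 h and harvests 24 h later, and which time holds could not be settled from them. A gene was called part of the common response when the contrast (SPTLC123 + DEGS1)/2 minus scramble had an adjusted p under 0.05 (limma, two-sided, Benjamini-Hochberg over 19775 genes) and both group means lay on the same side of the scramble mean. Levels are log2 of the deposited intensity, changes are log2 differences, and values after ± are the SE of the limma fit.

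Serine palmitoyltransferase joins serine and palmitoyl-CoA at the entry of de novo ceramide synthesis. Ceramide synthases then add a fatty acid to give dihydroceramide, and the desaturase DEGS1 turns this into ceramide, from which the cell makes sphingomyelin and glycosphingolipids. Loss of either enzyme is known to lower the supply of newly made ceramide, but dihydroceramide piles up only when the desaturase is lost. In liver cells ceramide is known as an inhibitor of insulin signalling and as a building block of lipoprotein particles. A response seen in both knockdowns is therefore set apart from one that needs a block at one particular step. The design cannot make one further separation: both contrasts use the same 3 scramble arrays and the same control siRNA, so a gene moved by both knockdowns and a gene moved the other way by the control siRNA cannot be told apart.

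The targets showed that the labels held. SPTLC1 read 11.02, 10.83 and 10.98 in scramble and 8.53, 8.77 and 8.72 in SPTLC123, and DEGS1 read 8.84, 8.75 and 8.59 in scramble and 5.19, 5.01 and 4.80 in the DEGS1 group. Each target lay low only in the group aimed at it. SPTLC1 (-1.25 ± 0.10) and DEGS1 (-1.92 ± 0.14) still met the call rule on the average, with changes in the other knockdown of -0.23 and -0.12, and are counted below although their knockdown is not shared. SPTLC2 (-0.43 ± 0.10) failed the rule, with opposite directions in the 2 groups. SPTLC3 was not analysed here. The hepatoma markers AFP, ALB, APOA1, APOB, APOH, TTR, SERPINA1, TF, FGB and GPC3, 10 in all, were each brighter than the probe set median (4.86) in every group. The 3' minus 5' difference of the actin control probe sets, a sign of RNA or labelling quality, was 0.40 to 0.56 in 6 arrays. It was higher in the other 3, with 1.15 for SPTLC123 replicate 3, 1.31 for DEGS1 replicate 2 and 1.25 for DEGS1 replicate 3. The GAPDH control gave 0.25, 0.40 and 0.40 in these 3 arrays and -0.09 to 0.01 in the other 6. On the first principal component, the axis of largest variation between arrays (39.5% of the variance), these 3 stood at 14.2, 30.9 and 32.5. The scramble arrays stood at -26.6 to -14.3 and the remaining knockdown arrays at -9.29 to 1.36. Group and array quality are mixed on this axis. Because no scramble array is among these 3, counts are also given without them. That fit holds 3 scramble arrays, 2 SPTLC123 arrays and 1 DEGS1 array, so the DEGS1 array is assumed to vary like the arrays of the other groups, and a call lost there may also be lost to the smaller number of arrays.

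In all, 1997 genes formed the common response, which is 10.1% of those tested. Of these 1049 were higher (5.3%) and 948 lower (4.79%) in the knockdowns. Another 51 genes passed on average but moved in opposite directions and were left out; with them 2048 passed in any direction (10.4%). The median size of the change was 0.52, and 184 genes changed at least 2-fold on average (80 higher, 104 lower). In 36 genes the increase was at least 2-fold in each knockdown, and in 46 the decrease was. For 1559 of the 1997 genes (7.88% of all tested) the 6 knockdown arrays all lay on one side of the 3 scramble arrays. With no test, this held for 12% of all genes. The median change over all genes was -0.02. Without scramble replicate 2 the response held 1101 genes, without scramble replicate 3 1124, and without DEGS1 replicate 1 3032. Leaving out the 3 arrays with weak 5' signal gave 903 genes, 804 of them among the 1997. The mean change of all 1997 genes kept its sign in that fit, with a median of 88.2% of its size left. The genes were chosen on arrays that this fit reuses, so a kept sign is largely built in.

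How alike the knockdowns were can be tested without the scramble arrays, from DEGS1 minus SPTLC123. Array quality is unbalanced in this contrast, with weak 5' signal in DEGS1 replicates 2 and 3 but only in replicate 3 of SPTLC123. A difference between the groups can therefore hold both knockdown and array quality, which were not told apart. Over all genes 1713 differed between the knockdowns (8.66%), and 418 of the 1997 common genes did (20.9%). That 418 ran from 228 (without DEGS1 replicate 2) to 918 (without DEGS1 replicate 1) when single arrays were left out, stood lower also without scramble replicate 3 (260), SPTLC123 replicate 1 or DEGS1 replicate 3 (238 each) and SPTLC123 replicate 2 (278). The change was larger after SPTLC123 siRNA in 257 of the 418 and larger after DEGS1 siRNA in 161. In the typical common gene the smaller of the 2 changes was 65.3% of the larger, while in 214 genes it was under 25%, so the rule also admits genes that rest almost wholly on one knockdown. Both changes are taken from the same scramble arrays, in genes chosen for a shared direction, so likeness is partly built into the 65.3%. STK24, a protein kinase, is such a gene, at -1.88 after SPTLC123 and -0.01 after DEGS1 siRNA, and it left the response without scramble replicate 3 or DEGS1 replicate 2. Among the 82 genes changed at least 2-fold in each knockdown, 8 differed between them, against 8.66% of all genes. The 82 were chosen for large changes in both knockdowns, so likeness is partly built in here too. For these 82 the 95% interval of the difference reached from 0.18 to 1.14 to either side of the estimate, so modest differences could be missed.

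**Figure D1:**
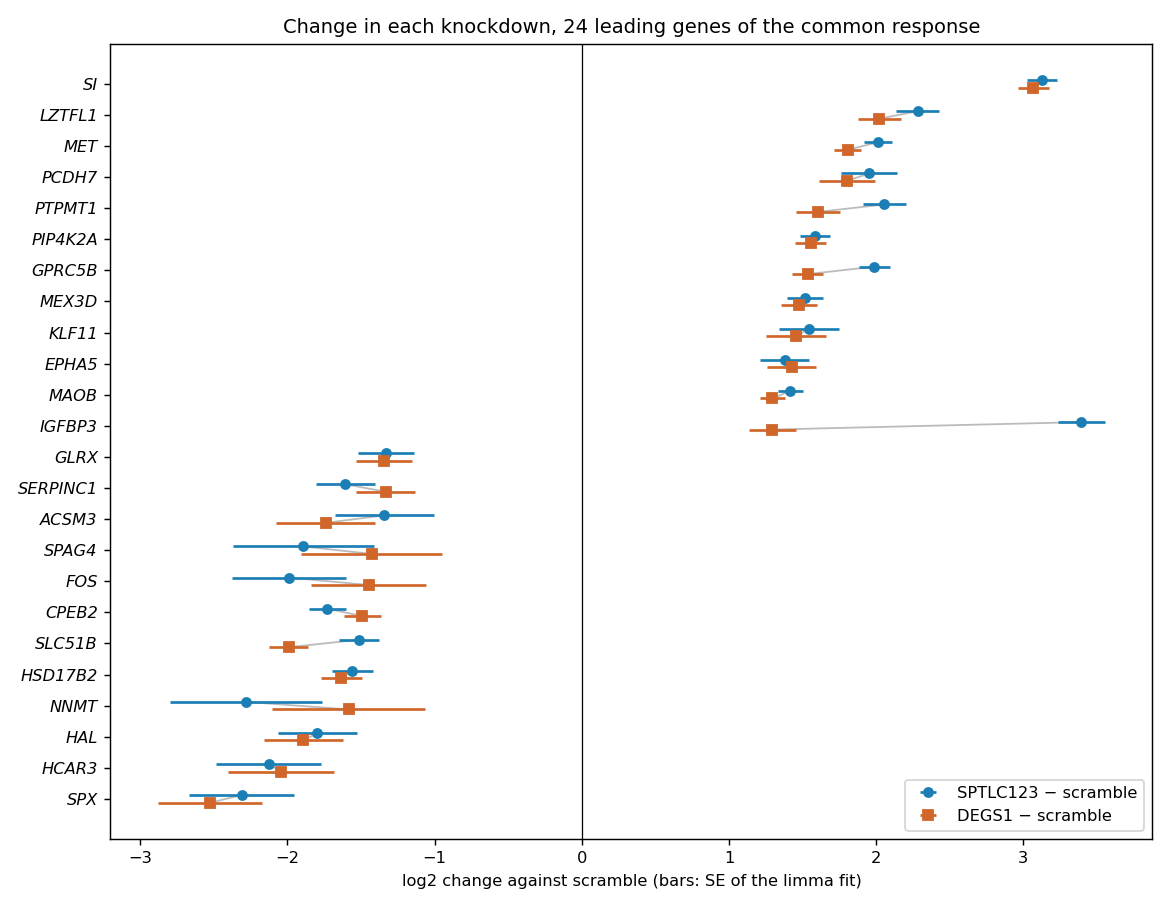
Log2 change against scramble (x axis) after SPTLC123 siRNA (circles) and DEGS1 siRNA (squares) for the 12 increases and 12 decreases with the largest smaller change; bars are the SE of the limma fit. The pairs of points lie close together for most genes, while IGFBP3 stands at 3.40 after SPTLC123 and 1.29 after DEGS1 siRNA. Genes were ranked by the smaller change and both changes use the same scramble arrays, so close pairs are partly built in.

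The gene that rose most was SI, sucrase-isomaltase, an enzyme of the intestinal brush border that digests sugars. It read 4.26, 4.07 and 4.37 in scramble, 7.28, 7.31 and 7.50 in SPTLC123, and 7.35, 7.24 and 7.31 in the DEGS1 group. The 6 knockdown arrays lay close together in SI, between 7.24 and 7.50, and far above all scramble arrays. The mean change was 3.10 ± 0.09, or 8.56-fold (adjusted p = 2.56e-08, limma), and the knockdowns differed by -0.06 (95% interval -0.29 to 0.17). The scramble level was under the probe set median, near background, so the size of the fold is uncertain.

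Beside SI, 6 other genes of an intestinal list were called higher. Of 27 measured genes of the intestinal brush border and endoderm list, 7 rose and none fell, with a median change of 0.10 against -0.02 over all genes. Counts of this and every other list are to be read beside the 10.1% of all genes that were called, 5.3% higher and 4.79% lower. CDX2, the homeobox factor that directs intestinal identity and is known to act on the SI promoter, read 7.16, 7.35 and 7.23 in scramble, 7.82, 7.99 and 7.94 in SPTLC123 and 7.90, 8.11 and 8.20 in the DEGS1 group. All 6 knockdown arrays lay above the scramble arrays, and the change was 0.75 ± 0.09 (adjusted p = 0.000515, limma). KLF5, a factor of intestinal epithelium, rose by 0.92 ± 0.14 and the trefoil peptide TFF3 by 0.62 ± 0.09. The other calls were RFX6 (1.58), the lactase gene LCT (0.47) and GATA6 (0.48), given here after their values had been seen. The list gave 6 higher and none lower without the 3 arrays of weak 5' signal. The remaining members did not pass.

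The SI promoter is shown because SI led the response and CDX2 rose with it. The capitals mark TTTATG, the core read here as a CDX site, and the HNF1 core GTTAAT, which appears as ATTAAC on this strand; both were searched on both strands and were chosen after the values were known. The sequence is the 250 bases before the RefSeq start on GRCh38.p14, chr3:165078497-165078746, minus strand.
SI: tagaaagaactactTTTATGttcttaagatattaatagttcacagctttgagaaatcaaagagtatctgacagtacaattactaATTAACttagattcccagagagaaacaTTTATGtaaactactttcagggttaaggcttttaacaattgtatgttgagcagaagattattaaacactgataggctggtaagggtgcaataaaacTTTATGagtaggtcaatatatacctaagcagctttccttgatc
The TTTATG matches lie at -236 to -231, -139 to -134 and -43 to -38 from the start, and the HNF1 core at -166 to -161. Of 15384 promoters of tested genes with an entry, 7.23% hold TTTATG and 4.65% the HNF1 core in these 250 bases. Among promoters of common genes the shares were 5.37% and 4.2% for those that rose and 6.27% and 4.22% for those that fell. In the intestinal list 1 of 17 promoters held TTTATG, that of SI, and 3 held the HNF1 core. In the list of plasma proteins and liver transcription factors, where 8 genes fell and 2 rose, both were also found. There 5 of 20 promoters held TTTATG and 6 the HNF1 core. These matches are letters only, and no binding was measured.

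**Figure D2:**
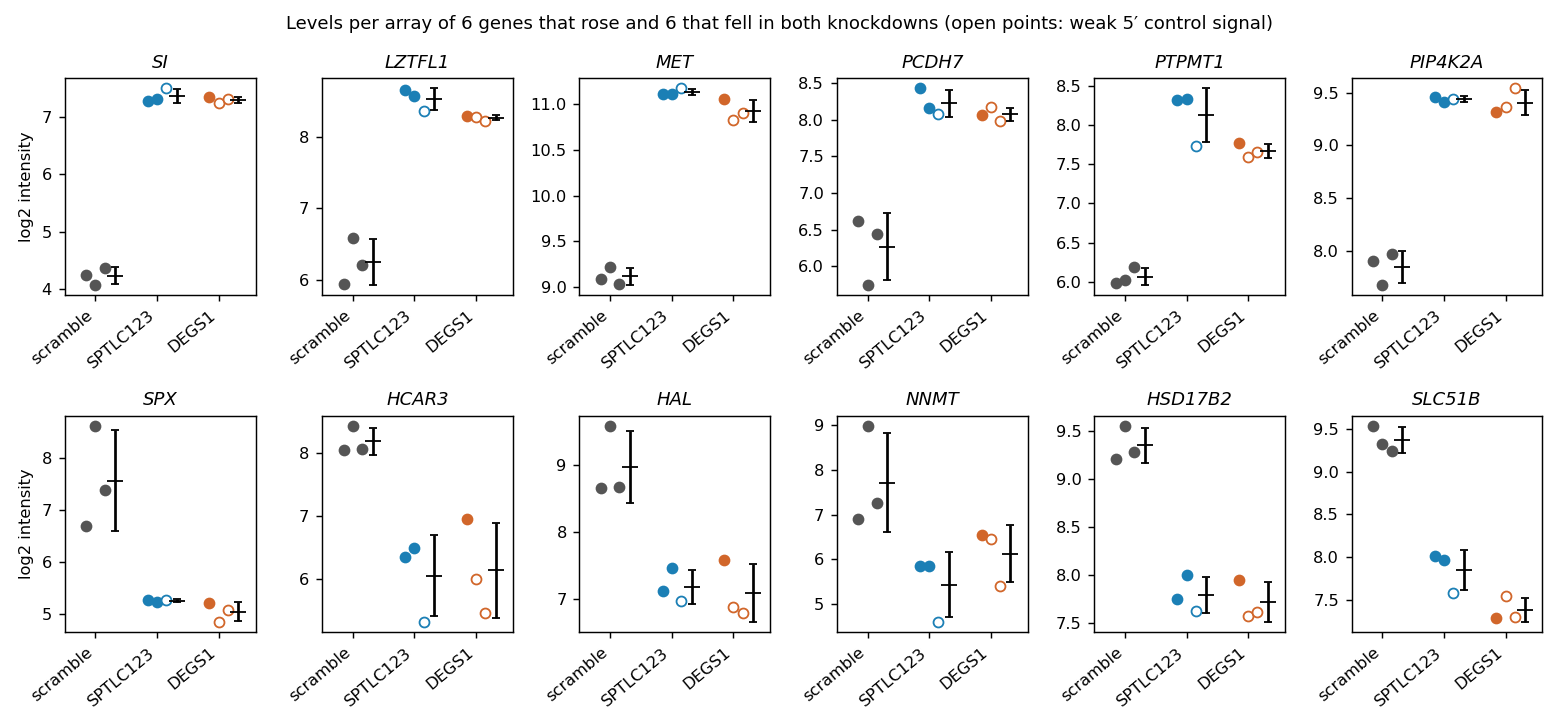
Log2 intensity (y axis) in each array for 6 genes that rose (upper row) and 6 that fell (lower row), by group; points are arrays, open points the 3 arrays with weak 5' control signal, and bars the mean and SD of 3 arrays. The rule that picked these genes required that the 6 knockdown arrays lie on one side of the 3 scramble arrays, as they do in every panel. In SPX, HAL and NNMT scramble replicate 2 lies well above the other scramble arrays.

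MET, the receptor of hepatocyte growth factor, read 9.10, 9.22 and 9.04 in scramble, 11.11, 11.11 and 11.17 in SPTLC123 and 11.06, 10.82 and 10.90 in the DEGS1 group. The groups were far apart and the change was 1.91 ± 0.08, or 3.76-fold (adjusted p = 8.78e-07, limma). All 3 other MET probe sets rose in sign, and 1 of them was called (changes 0.77 to 1.69). In the list of growth factor receptors 4 of 24 rose and 1 fell, with a median change of 0.05. EPHB4 rose by 0.39 ± 0.09, EGFR by 0.65 ± 0.16 and FGFR4 by 0.45 ± 0.12. Only MET remained called in the fit without the 3 arrays with weak 5' signal, and EGFR, FGFR4 and EPHB4 also lost the call when single scramble arrays were left out (adjusted p from 0.0584 to 0.126). When the probe sets of each gene were averaged, EGFR stood at 0.13 (adjusted p = 0.266) and FGFR4 at 0.05 (adjusted p = 0.796). EPHA5, a receptor of ephrins outside this list, rose by 1.40 ± 0.14. Of its 2 other probe sets 1 was called alike (1.20) and 1 had the opposite sign (-0.17).

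IGFBP3, which binds insulin-like growth factors in serum, was the named increase with the smallest adjusted p for a difference between the knockdowns. It read 6.21, 5.56 and 6.13 in scramble, 9.55, 9.17 and 9.36 in SPTLC123 and 7.23, 7.22 and 7.33 in the DEGS1 group. Both knockdowns lay above scramble and the DEGS1 arrays between the other groups. The knockdowns differed by -2.10 (95% interval -2.45 to -1.75, adjusted p = 3.43e-05, limma). Of 25 measured genes of insulin and insulin-like growth factor signalling 5 rose and 1 fell. Those that rose were IGFBP3, PDPK1, the kinase that activates AKT (0.56 ± 0.08), RPTOR, the mTOR complex subunit raptor (0.62 ± 0.12), the adaptor GRB10 (0.70 ± 0.12) and AKT1 (0.57). FOXO1, the transcription factor that AKT holds in the cytoplasm, fell by 0.38. Of the other probe sets 3 of 5 for PDPK1 and 1 of 3 for GRB10 had the same sign. With the mean of their probe sets PDPK1 stood at 0.18 (adjusted p = 0.273) and GRB10 at 0.30 (adjusted p = 0.114). The fit without the 3 arrays of weak 5' signal called 4 members higher and none lower.

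The remaining leading increases were of varied function, and of those described next only GPRC5B passed the test of a difference between the knockdowns. LZTFL1, a regulator of ciliary traffic, read 5.94, 6.58 and 6.21 in scramble, 8.66, 8.57 and 8.36 in SPTLC123 and 8.30, 8.27 and 8.23 in the DEGS1 group. None of its 3 other probe sets was called, and their changes ran from -0.20 to 0.38, so its increase of 2.15 ± 0.13 rests on 1 probe set. The protocadherin PCDH7 read 6.61, 5.74 and 6.44 in scramble, 8.43, 8.15 and 8.08 in SPTLC123 and 8.06, 8.17 and 7.98 in the DEGS1 group. That was a rise of 1.88 ± 0.17, and 1 of its 4 other probe sets was called (changes 0.008 to 1.60). PIP4K2A, a kinase of phosphatidylinositol 5-phosphate, read 7.90, 7.68 and 7.97 in scramble and between 9.32 and 9.54 in the knockdowns. Its change was 1.57 ± 0.09, and the knockdowns differed by -0.03 (95% interval -0.26 to 0.20). Neither of its 2 other probe sets was called (changes 0.21 and 0.75), so the size of this increase rests on 1 probe set. MAOB, the mitochondrial monoamine oxidase, rose by 1.36 ± 0.08, MEX3D, an RNA-binding protein, by 1.50 ± 0.11, and the TGF-beta inducible repressor KLF11 by 1.50 ± 0.18. None of the 2 other MAOB, 2 other MEX3D or 1 other KLF11 probe sets was called. GPRC5B, an orphan receptor of lipid rafts, rose by 1.76 ± 0.09 and somewhat more after SPTLC123 siRNA (difference -0.45, adjusted p = 0.0239, limma). Of its 3 other probe sets 1 was called alike, and their changes ran from -0.05 to 1.83.

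Of 25 measured genes of sphingolipid synthesis, targets left out, 3 rose and 1 fell, with a median change of 0.01. The 3 that rose put sugars on ceramide. UGT8, which adds galactose to ceramide, read 7.30, 7.16 and 7.47 in scramble, 8.33, 8.38 and 8.64 in SPTLC123 and 8.51, 8.14 and 8.24 in the DEGS1 group (change 1.06 ± 0.11, adjusted p = 0.000218, limma). UGCG, which adds glucose, read 9.03, 8.34 and 8.89 in scramble, 9.47, 9.35 and 9.95 in SPTLC123 and 9.31, 9.67 and 9.77 in the DEGS1 group. Both genes were higher in all 6 knockdown arrays than in any scramble array, and UGCG rose by 0.83 ± 0.18 with both other probe sets called alike. B4GALT5, which adds the next galactose to make lactosylceramide, rose by 0.53 ± 0.12, and its other probe set was called too. UGCG and B4GALT5 lost the call without scramble replicate 2 (adjusted p = 0.0608 and 0.0861), and B4GALT5 also without scramble replicate 3 (0.0636). Without the 3 arrays of weak 5' signal they stood at 0.61 (adjusted p = 0.0984) and 0.46 (adjusted p = 0.158). GLTP, a glycolipid transfer protein, fell by 0.66 ± 0.09, mostly after SPTLC123 siRNA (-1.13 against -0.20). Without the 3 arrays the list gave 1 higher and 2 lower. CERS2, the ceramide synthase for very long chains, moved in opposite directions, -1.53 after SPTLC123 and 0.15 after DEGS1 siRNA, and is not in the common response.

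In the list for breakdown of sphingolipids, with the sphingosine 1-phosphate genes, 1 of 22 rose while 2 fell, with a median change of -0.10. SGPP1, which removes the phosphate from sphingosine 1-phosphate, fell by 0.90 ± 0.08, more after DEGS1 siRNA (-1.28) than after SPTLC123 siRNA (-0.51). The alkaline ceramidase ACER3 (-0.49 ± 0.13) and the receptor S1PR2 (0.29 ± 0.07) passed narrowly and lost the call when any of several single arrays was left out. SGPP1 was the member still called without the 3 arrays of weak 5' signal (1 lower, none higher).

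Of 26 genes of glycerophospholipid synthesis 5 rose, 1 fell and the others did not pass, with a median change of 0.10. PTPMT1, the mitochondrial phosphatase of cardiolipin synthesis, read 5.99, 6.03 and 6.19 in scramble, 8.32, 8.33 and 7.73 in SPTLC123 and 7.77, 7.59 and 7.66 in the DEGS1 group. CDS1, which makes CDP-diacylglycerol, read 7.26, 7.21 and 7.20 in scramble, 9.07, 9.07 and 9.24 in SPTLC123 and 8.05, 8.61 and 8.75 in the DEGS1 group. The changes of PTPMT1 and CDS1 were 1.83 ± 0.13 and 1.57 ± 0.13. In both the groups did not overlap, which for PTPMT1 the rule for leading genes required. LPIN1, lipin 1, rose by 0.66 ± 0.17 but lost the call without scramble replicate 2 or 3, SPTLC123 replicate 1 or 3, or DEGS1 replicate 2 or 3 (adjusted p from 0.0570 to 0.147). The choline transporter SLC44A1 fell by 1.55 ± 0.13, chiefly after DEGS1 siRNA (-2.64 against -0.46), and 1 of its 5 other probe sets was called the other way. With its probe sets averaged it stood at -0.50, with opposite directions in the knockdowns. Of this list 2 rose and 1 fell without the 3 arrays of weak 5' signal. Leaving out scramble replicate 2 or 3, SPTLC123 replicate 3, or DEGS1 replicate 2 or 3 also gave 2 and 1, and leaving out SPTLC123 replicate 1 gave 2 and 2.

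In the list of plasma proteins and liver transcription factors 8 of 26 fell and 2 rose, with a median change of -0.13. Haptoglobin HP read 7.70, 7.33 and 7.35 in scramble, 6.17, 6.33 and 6.54 in SPTLC123 and 6.41, 6.65 and 6.26 in the DEGS1 group. Hemopexin HPX, which carries free haem, read 8.84, 8.71 and 8.58 in scramble and between 7.46 and 7.92 in the knockdowns. All knockdown arrays lay below scramble in both, with changes of -1.07 ± 0.12 and -0.93 ± 0.11 (adjusted p = 0.00038 and 0.000397, limma). Probe sets of HP can share signal with its near copy HPR. SERPINA3, an acute-phase inhibitor of proteases, fell by 0.94 ± 0.16, while SERPINA7, the thyroid hormone carrier, rose by 1.35 ± 0.18 from a level below the median of all probe sets. Without the 3 arrays with weak 5' signal the list gave 2 higher and 3 lower, and without scramble replicate 2 it gave 2 and 4. Leaving out scramble replicate 1, SPTLC123 replicate 1 or 3, or DEGS1 replicate 2 or 3 gave 2 and 5. Of the 10 hepatoma markers 4 fell and none rose: TTR by 0.86 ± 0.15, GPC3 by 0.48 ± 0.10, SERPINA1 by 0.31 ± 0.08 and TF by 0.28 ± 0.08. With probe sets averaged GPC3 stood at -0.10 (adjusted p = 0.831), SERPINA1 at -0.24 (0.0503) and TF at -0.03 (0.920). Only TTR among them was still called without the 3 arrays. Without scramble replicate 2 it was also the only one called.

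SERPINC1, antithrombin, is another plasma protein among the leading decreases. It read 10.94, 11.34 and 10.78 in scramble, 9.38, 9.73 and 9.14 in SPTLC123 and 10.06, 9.62 and 9.38 in the DEGS1 group. The groups did not overlap, which the rule for leading genes required, and the change of -1.47 ± 0.18 was shared by its other probe set (-1.80). In the list of lipoproteins and cholesterol efflux 6 of 23 fell and none rose, with a median change of -0.15. APOM, the carrier of sphingosine 1-phosphate in plasma, read 10.35, 10.80 and 10.01 in scramble, 9.10, 9.32 and 8.82 in SPTLC123 and 9.61, 9.36 and 9.26 in the DEGS1 group (-1.14 ± 0.17). NR1H3, the liver X receptor alpha, fell by 0.91 ± 0.14. SOAT2, which esterifies cholesterol, fell by 0.71 ± 0.10 and APOC3, an inhibitor of lipoprotein lipase, by 0.78 ± 0.12, each more after SPTLC123 siRNA. Of these genes 5 fell and none rose without the 3 arrays of weak 5' signal.

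The largest shared decreases were of genes with metabolic or signalling roles, and several varied widely in scramble. SPX, the peptide hormone spexin, read 6.69, 8.62 and 7.38 in scramble, 5.26, 5.22 and 5.27 in SPTLC123 and 5.20, 4.83 and 5.08 in the DEGS1 group. Its knockdown arrays lay close together, so the SE of its change, -2.42 ± 0.31, comes mostly from scramble. HCAR3, a receptor of hydroxylated fatty acids, read 8.05, 8.43 and 8.07 in scramble, 6.35, 6.50 and 5.32 in SPTLC123 and 6.95, 6.00 and 5.47 in the DEGS1 group (-2.09 ± 0.31). In HCAR3 the lowest knockdown values were those of arrays with weak 5' signal, though DEGS1 replicate 1 and SPTLC123 replicates 1 and 2 were also below scramble. Probe sets of HCAR3 can share signal with HCAR2. HAL, which breaks down histidine, read 8.67, 9.60 and 8.67 in scramble and between 6.79 and 7.59 in the knockdowns (-1.84 ± 0.23).

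NNMT, which methylates nicotinamide, read 6.90, 8.99 and 7.26 in scramble, 5.85, 5.86 and 4.60 in SPTLC123 and 6.54, 6.45 and 5.40 in the DEGS1 group. Scramble replicate 2 stood far above the rest, and without it the change was -1.30 (adjusted p = 0.0760, limma), against -1.93 ± 0.45 with it. SPAG4 (-1.66 ± 0.42) also had its highest value there, 8.38 against 6.12 and 6.42, and lost the call without SPTLC123 replicate 1 or 3 or DEGS1 replicate 2 or 3 (adjusted p from 0.0544 to 0.0635). Without the 3 arrays of weak 5' signal NNMT stood at -1.52 (adjusted p = 0.125) and SPAG4 at -1.42 (adjusted p = 0.202). ACSM3, an acyl-CoA synthetase for medium chains, fell by 1.54 ± 0.29 and stood at -1.15 without these arrays (adjusted p = 0.0742).

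HSD17B2, which inactivates oestradiol and testosterone, read 9.21, 9.56 and 9.29 in scramble, 7.75, 8.00 and 7.63 in SPTLC123 and 7.95, 7.57 and 7.61 in the DEGS1 group (-1.60 ± 0.12). SLC51B, a subunit of the bile acid exporter, read 9.54, 9.33 and 9.24 in scramble, 8.01, 7.97 and 7.59 in SPTLC123 and 7.29, 7.54 and 7.30 in the DEGS1 group (-1.75 ± 0.12). GLRX, glutaredoxin, read 8.85, 9.55 and 8.67 in scramble and between 7.50 and 7.80 in the knockdowns (-1.34 ± 0.17). In all of these the knockdown arrays lay below every scramble array, which the rule for leading genes required. CPEB2, which regulates translation, fell by 1.61 ± 0.11, although neither of its 2 other probe sets was called. FOS, the immediate-early factor, read 6.87, 6.16 and 5.46 in scramble, 4.71, 4.18 and 3.62 in SPTLC123 and 4.74, 5.35 and 4.06 in the DEGS1 group (-1.72 ± 0.34). The gap between the FOS groups was narrow, with 5.46 as the lowest scramble value and 5.35 as the highest knockdown value.

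The list with the largest share of calls was that of ATF4 and the integrated stress response (44.8%, against 10.1% of all genes). In this response cells short of amino acids raise amino acid synthesis and uptake. Of the 29 genes of the list 13 fell and none rose, and the median change was -0.47. ASNS, asparagine synthetase, read 10.66, 12.46 and 11.36 in scramble, 10.10, 10.13 and 10.35 in SPTLC123 and 9.69, 9.71 and 9.72 in the DEGS1 group. The decrease of -1.54 ± 0.28 was seen in every knockdown array, but the scramble arrays ran from 10.66 to 12.46. MTHFD2, of mitochondrial folate metabolism, read 11.37, 12.13 and 11.87 in scramble, 11.49, 11.42 and 11.47 in SPTLC123 and 10.35, 10.24 and 10.11 in the DEGS1 group. In MTHFD2 the SPTLC123 arrays overlapped scramble, and the knockdowns differed by -1.23 (95% interval -1.58 to -0.88). SLC7A1, a carrier of arginine and lysine, fell by 0.79 ± 0.14 and SLC3A2, the heavy chain of amino acid transporters, by 0.40 ± 0.08, each chiefly after DEGS1 siRNA. ATF4 itself was not called (-0.31).

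This count moved strongly with single arrays. Without scramble replicate 2, the array in which ASNS was highest, 4 members were called lower, and without scramble replicate 3 it was 6. Leaving out DEGS1 replicate 2 or 3 gave 8 each, and leaving out scramble replicate 1 gave 18. Without the 3 arrays with weak 5' signal 2 were called lower and none higher, while ASNS itself kept its size, at -1.59 (adjusted p = 0.0592, limma). With the actin difference of each array as a covariate, 10 were called lower and none higher, and ASNS stood at -1.61 (adjusted p = 0.00916, limma).

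**Figure D3:**
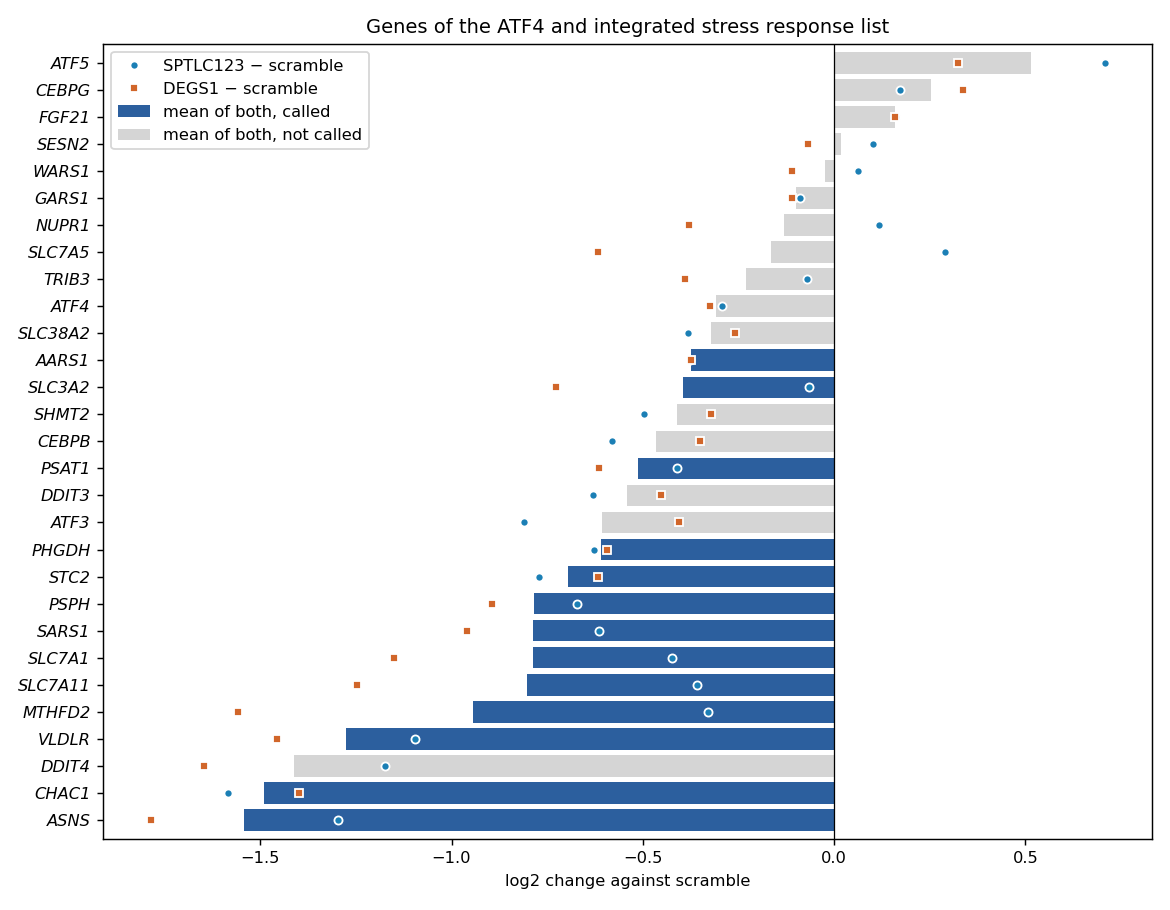
Log2 change against scramble (x axis) for the 29 genes of the ATF4 and integrated stress response list; bars are the mean of both knockdowns, dark where called and grey where not, circles SPTLC123 and squares DEGS1 siRNA. The bars run from -1.54 for ASNS to 0.52 for ATF5, 13 of them dark and all of those below 0.

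The promoters of 3 called members of this list are shown because they hold the composite site that ATF4 binds with a C/EBP partner. It was searched as TGATGNAAN on both strands, and capitals mark the match. Each sequence is the 250 bases before the RefSeq start on GRCh38.p14: ASNS at chr7:97872409-97872658 (minus strand), CHAC1, a glutathione-degrading enzyme, at chr15:40953221-40953470 (plus strand), and AARS1, the alanyl-tRNA synthetase, at chr16:70289507-70289756 (minus strand).
ASNS: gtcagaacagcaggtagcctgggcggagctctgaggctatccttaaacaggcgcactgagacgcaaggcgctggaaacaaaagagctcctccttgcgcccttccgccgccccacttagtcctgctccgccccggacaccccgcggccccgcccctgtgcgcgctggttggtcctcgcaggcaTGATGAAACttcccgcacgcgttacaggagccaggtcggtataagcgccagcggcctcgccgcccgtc
CHAC1: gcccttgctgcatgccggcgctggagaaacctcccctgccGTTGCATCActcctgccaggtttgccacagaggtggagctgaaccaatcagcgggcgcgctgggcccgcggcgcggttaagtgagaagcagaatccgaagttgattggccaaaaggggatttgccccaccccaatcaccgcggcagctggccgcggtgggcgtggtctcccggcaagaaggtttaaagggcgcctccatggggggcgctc
AARS1: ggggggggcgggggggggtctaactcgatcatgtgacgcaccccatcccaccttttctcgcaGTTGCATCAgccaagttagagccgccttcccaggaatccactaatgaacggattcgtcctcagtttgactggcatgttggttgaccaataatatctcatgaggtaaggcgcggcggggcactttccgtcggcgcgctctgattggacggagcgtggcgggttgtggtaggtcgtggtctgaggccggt
Of 25 promoters of this list with an entry 5 hold the site (20.0%), against 2.31% of the 15384 promoters of all tested genes. The list gathers genes of the ATF4 response, so a higher share of the ATF4 site is partly built into it. The genes with the site were ASNS (-1.54), CHAC1 (-1.49) and AARS1 (-0.38), which were called, and ATF3 (-0.61) and FGF21 (0.16), which were not. CHAC1 and AARS1 were chosen after their values were seen. Among common genes the share was 2.81% for those that fell and 1.4% for those that rose. The other motifs searched were TGACNNNGC, the antioxidant response element (13.6% of those that fell, 9.45% of those that rose, 12.0% of all), and NACGTGN, the hypoxia core (24.0%, 21.9% and 21.1%). The long HNF1 palindrome was found in none of the 15384.

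In the unfolded protein response list 4 of 23 fell and 2 rose. EDEM1, which hands misfolded glycoproteins to degradation, read 9.27, 9.48 and 9.17 in scramble and between 8.04 and 8.44 in the knockdowns (-1.09 ± 0.11), while the folding enzyme PDIA4 read 10.77, 10.68 and 10.68 in scramble and between 11.30 and 11.55 in the knockdowns (0.75 ± 0.08). These are neighbours in one pathway that moved in opposite directions in all 6 knockdown arrays. The oxidase ERO1A fell by 0.77 ± 0.08, more after SPTLC123 siRNA. DNAJC3, an inhibitor of the kinase PERK, rose by 0.59 ± 0.14 but lost the call without scramble replicate 2 (0.49, adjusted p = 0.0988) or with its probe sets averaged (0.33, adjusted p = 0.428). This list gave 1 higher and 2 lower both without scramble replicate 2 and without the 3 arrays with weak 5' signal. Of 22 genes of hypoxia and glycolysis 4 fell and none rose: PDK1, which inhibits pyruvate dehydrogenase (-1.03 ± 0.21), BNIP3L (-1.04 ± 0.24), ADM (-0.39 ± 0.10) and VEGFA (-0.37 ± 0.11). None of the 4 was called without the 3 arrays of weak 5' signal (adjusted p from 0.0909 to 0.158), and without scramble replicate 2 only PDK1 was, beside 1 increase. Of 21 oxidative stress and NRF2 genes 1 passed (4.76%, against 10.1% of all genes), GPX2, a glutathione peroxidase of the gut (0.71 ± 0.14). AKR1C1 moved in opposite directions (0.27 after SPTLC123, -1.86 after DEGS1 siRNA).

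The matrix and its modifying enzymes held calls in both directions. Of 30 genes 5 rose and 8 fell, with a median change of -0.23. The proteoglycan VCAN rose by 1.71 ± 0.16, the netrin NTN4 by 1.32 ± 0.13 and the collagen COL12A1 by 1.04 ± 0.12, from scramble levels of 4.94, 4.12 and 4.69 near or below the median of all probe sets. With its probe sets averaged COL12A1 stood at 0.22 (adjusted p = 0.0654). PLOD2, a lysyl hydroxylase of collagen, fell by 1.45 ± 0.13, mostly after SPTLC123 siRNA (-2.45 against -0.45). The counts were 3 and 2 without the 3 arrays of weak 5' signal, 3 and 5 without scramble replicate 1, 3 and 6 without scramble replicate 2 or 3, 5 and 5 without SPTLC123 replicate 1, and 4 and 5 without DEGS1 replicate 2 or 3. Among 26 cadherins, protocadherins and integrins 5 rose and 2 fell. ITGB8, an integrin that activates TGF-beta, rose by 1.05 ± 0.08 and the tight junction protein CLDN1 by 0.91 ± 0.07, while ITGA1, a collagen receptor, fell by 0.69 ± 0.08. Leaving out scramble replicate 2 gave 3 and 1. Of 27 Wnt receptors and targets 6 rose and 1 fell. FZD5, a receptor of Wnt proteins, rose by 1.13 ± 0.10, more after DEGS1 siRNA, the secreted inhibitors DKK1 by 0.62 ± 0.09 and DKK3 by 0.54 ± 0.08, and RNF43, which removes Wnt receptors from the membrane, by 0.57 ± 0.10. Leaving out the 3 arrays gave 5 higher and 1 lower.

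Of 19 genes of cholesterol synthesis 2 rose and none fell (10.5%, near the 10.1% of all genes), DHCR7 by 0.47 ± 0.10 and LSS by 0.66 ± 0.15. Both make late intermediates of cholesterol, and neither was called without scramble replicate 3 (adjusted p = 0.0702 and 0.0837) or without the 3 arrays of weak 5' signal (0.0887 and 0.102). Of 21 genes of fatty acid and triglyceride synthesis 2 fell and none rose, the acyl-CoA synthetase ACSL5 by 1.18 ± 0.13 and DGAT2, which makes triglyceride, by 0.70 ± 0.11. That is 9.52%, and the share was 9.09% in fatty acid oxidation, both also near that of all genes. Of 22 genes of fatty acid oxidation 1 rose and 1 fell, CPT1A (0.57 ± 0.09, but 0.20 and adjusted p = 0.187 with probe sets averaged) and PDK4 (-0.43 ± 0.11), the latter below the median of all probe sets in every group and not called without scramble replicate 2 or 3, SPTLC123 replicate 1 or 3, or DEGS1 replicate 2 or 3 (adjusted p from 0.0624 to 0.152). In the urea cycle and amino acid list 2 of 22 rose and 3 fell. GLUL, glutamine synthetase, rose by 0.54 ± 0.09 (0.22 and adjusted p = 0.300 with probe sets averaged), and TDO2, tryptophan dioxygenase, by 1.58 ± 0.28, with the opposite sign in its other probe set. ARG1, arginase, fell by 2.18 ± 0.39, more after DEGS1 siRNA, with overlapping groups. It stood at -1.68 without the 3 arrays of weak 5' signal (adjusted p = 0.0547), and this list then gave 2 higher and none lower. Of 21 haem and iron genes 3 fell and none rose, CPOX of haem synthesis (-1.81 ± 0.17), the iron exporter SLC40A1 (-1.01 ± 0.10) and the transferrin receptor TFRC (-0.32 ± 0.09), which lost the call without any of 6 single arrays (scramble replicates 1 and 3, SPTLC123 replicates 1 and 2, DEGS1 replicates 2 and 3). In the list of superoxide dismutases, peroxidases and metallothioneins 3 of 22 rose and 3 fell. SOD2 (-1.04 ± 0.13) and MT1M (1.10 ± 0.24) rest on SPTLC123 siRNA, and both left the common response without scramble replicate 2, where their directions were opposite. CAT, catalase, rose by 0.36 ± 0.07 and the peroxiredoxin PRDX4 fell by 0.70 ± 0.17, and both lost the call when single scramble arrays were left out (adjusted p from 0.0512 to 0.0965). In the fit without the 3 arrays of weak 5' signal 1 of this list fell and none rose.

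In the list of receptors and signals of metabolites and cytokines 7 of 24 fell and 2 rose, and besides SPX and HCAR3 those that fell included TNFSF4 (-1.43 ± 0.14) and IL6ST, the shared receptor chain of the interleukin 6 family (-0.82 ± 0.08, and -0.55 with adjusted p = 0.0515 with probe sets averaged). Both changed more after DEGS1 siRNA. Of 25 interferon response genes 5 fell and none rose, among them ISG20 (-1.28 ± 0.15), IFIT1 (-1.14 ± 0.18), MX2 (-0.41 ± 0.08) and IFIT5 (-0.44 ± 0.12). The list gave 3 lower, IFIT5 not among them, when any single array was left out other than scramble replicate 1 (4) or DEGS1 replicate 1 (6), and without the 3 arrays of weak 5' signal 1 was higher and 3 lower. Of 23 inflammation genes NFKBIA rose (0.57 ± 0.08) and ORM1 fell (-0.86 ± 0.09), 8.70% of the list against 10.1% of all genes. In the p53 and apoptosis list 3 of 22 rose and 2 fell. MCL1, which holds apoptosis back, rose by 0.75 ± 0.10 and SESN3 by 0.68 ± 0.09, while PMAIP1, which promotes it, fell by 1.47 ± 0.21 and ZMAT3 by 1.01 ± 0.16. With the mean of their probe sets MCL1 stood at 0.18 (adjusted p = 0.637) and SESN3 at 0.14 (adjusted p = 0.741). Of 33 genes of the cell cycle and replication 2 rose, CCNE1 (0.98 ± 0.11, its other probe set of opposite sign) and E2F2 (0.80 ± 0.11, but 0.28 and adjusted p = 0.0613 with probe sets averaged), and 3 fell, among them DONSON (-1.43 ± 0.09) and GINS1 (-0.70 ± 0.09). Of 25 lysosome and autophagy genes 1 rose and 4 fell, the proteases CTSB (-0.59 ± 0.07) and CTSL (-0.46 ± 0.10), LAMP2 (-0.63 ± 0.10) and UVRAG (-0.42 ± 0.07), with none higher and 2 lower without the 3 arrays.

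Of 19 genes of the RNA interference machinery, which any siRNA engages, 3 rose and 2 fell, a share of 26.3% against 10.1% of all genes, with TNRC6A at 0.85 ± 0.16, CNOT7 at 0.44 ± 0.08, AGO4 at -0.49 ± 0.08 and DCP2 at -0.71 ± 0.12. The count was 1 and 3 without the 3 arrays of weak 5' signal and 1 and 2 with probe sets averaged, where CNOT7 stood at 0.12 (adjusted p = 0.390). Of 11 reference genes 1 fell, HPRT1 (-0.40 ± 0.08), which is 9.09% of the list. Of 22 markers of other liver cell types 2 fell, KRT23 (-1.13 ± 0.16) and CD14 (-0.58 ± 0.13), also 9.09%. Of these markers 11 were dimmer than the probe set median in scramble and 14 in each knockdown. The markers PTPRC of leukocytes, CDH5 of endothelium and COL3A1 of fibroblasts were among those below it in every group. Others were not below it in any group, among them PECAM1 of endothelium, ACTA2, DES and RGS5 of mesenchymal cells, and KRT7 and KRT19 of bile ducts. MARCO and CD14 were below it in both knockdown groups but not in scramble. The summed level of these markers ran from 10.34 to 10.43 in scramble, 10.11 to 10.42 in SPTLC123 and 9.83 to 10.04 in the DEGS1 group.

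**Figure D4:**
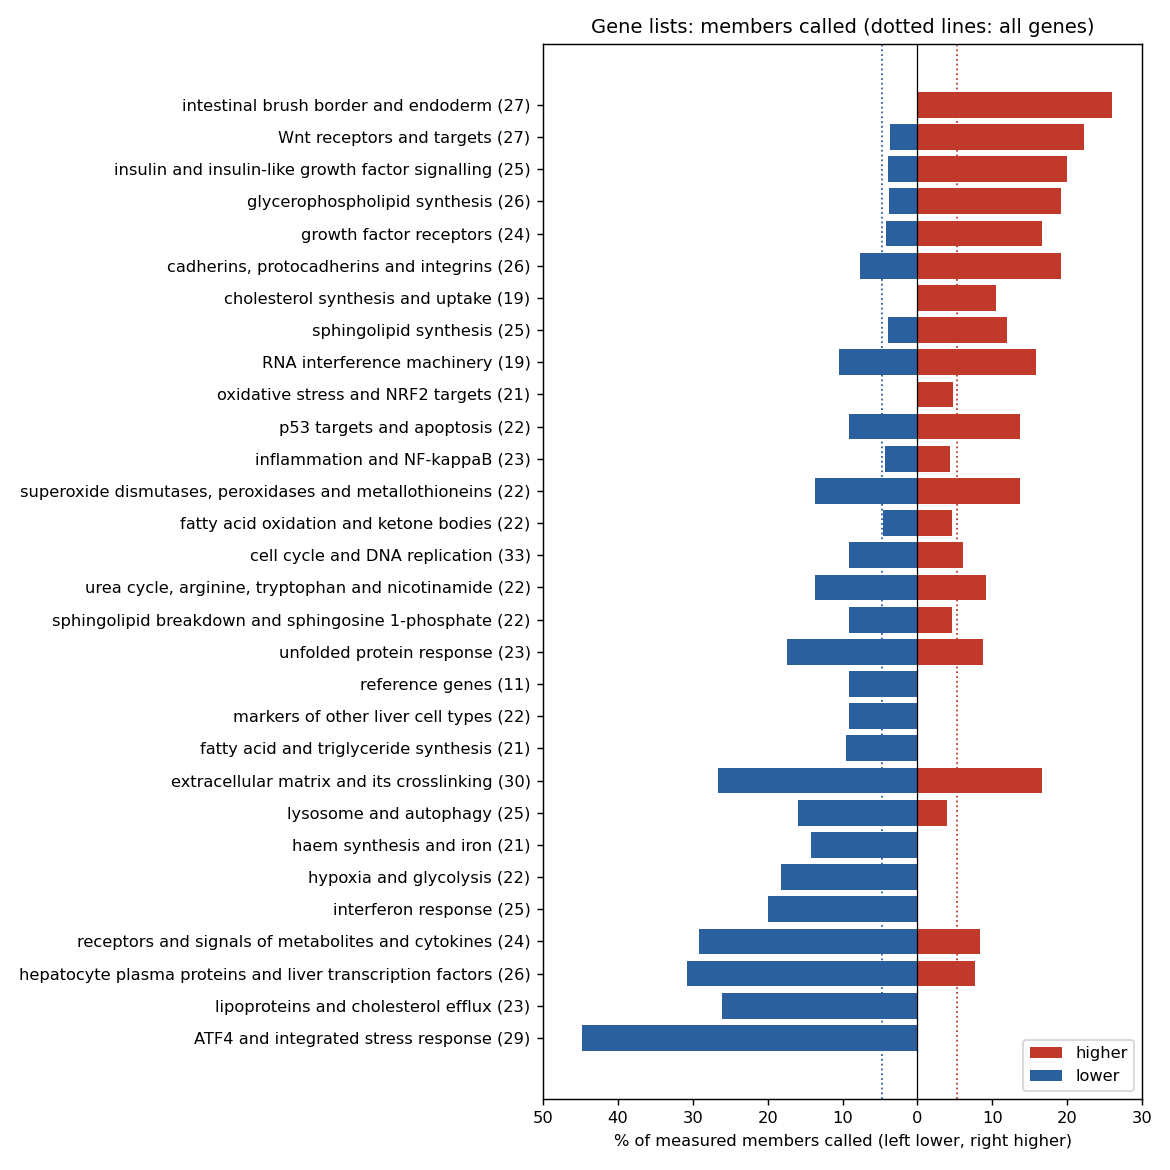
Share of the measured members of each list (number in brackets) that were called higher (right) or lower (left) in the common response; dotted lines give the share over all genes, 5.3% higher and 4.79% lower. The ATF4 list extends furthest to the left, with 13 of 29, and the intestinal list furthest to the right, with 7 of 27.

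Some genes met the rule while the knockdowns clearly differed in size. Among those that rose, MUC13, a mucin of the gut, stood at 1.38 after SPTLC123 and 0.20 after DEGS1 siRNA (with opposite directions when its probe sets were averaged) and GPCPD1, which splits glycerophosphocholine, at 1.50 and 0.19. Among those that fell, PDHX, a subunit of pyruvate dehydrogenase, stood at -2.09 and -0.29 and NBN, of DNA repair, at -1.85 and -0.10. All 4 responses belong mainly to SPTLC123 siRNA, and each difference was called (adjusted p from 3.84e-06 to 8.64e-05, limma). At the threshold itself, EXOC7 was the last to pass, at 0.29, and EFR3A missed at -0.34 (adjusted p = 0.0501, limma).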

How the data were processed

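RNA from 9 cultures of Huh7 cells (3 per group) was measured on 1-colour Affymetrix arrays. The deposited values are linear intensity per probe set, already background-corrected and normalized by the authors; the submitters' processing notes name RMA, GCRMA 2.12.1 and limma 2.14.7, and which of the first pair made these values is not given in the sources used here. The values ran from 4.88 to 27330.59 and the array medians from 27.82 to 29.93. The arrays' number limits the precision.

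The deposited intensity was taken to log2 with no pseudocount. Of 54613 probe sets without controls, 41091 named 1 gene in GEO's platform annotation, 1801 several and 11721 were unlisted; 41037 matched RefSeq. For each of 19775 genes the probe set with the highest mean over the 9 arrays was kept. Other probe sets are described for some genes only, so silence about them does not mean that they agree. In R 4.3.3, limma 3.58.1 fitted 3 group means (6 residual degrees of freedom) and contrasts of them, two-sided, with Benjamini-Hochberg adjustment over all genes. The fit was tested on simulated data. Genes were named by rule: the targets; the 12 increases and 12 decreases with the largest smaller group change among called genes that do not overlap and whose higher side is above the median of all probe sets; up to 4 called members of each of 31 lists by adjusted p; and 4 increases and 4 decreases with the smallest p for a difference between knockdowns. Other named genes were chosen after their values were seen. The members, lists, the 3 doubted arrays and the motifs were chosen with earlier results of these data known. The labels call the replicates biological. Promoters are RefSeq sequence on GRCh38.p14, the first listed per gene.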

Additional observations from a re-analysis of the deposited data

Results flagged for a closer look

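The following named genes met the call rule while the knockdowns differed from each other (limma on DEGS1 minus SPTLC123, adjusted p under 0.05), and each value is that log2 difference. Increases larger after SPTLC123 siRNA were those of GPRC5B (-0.45), IGFBP3 (-2.10), CDS1 (-0.65), CPT1A (-0.61), SERPINA7 (-1.58) and ITGB8 (-1.17). The same held for GPX2 (-0.94), MT1M (-1.76), TDO2 (-1.43), MUC13 (-1.18) and GPCPD1 (-1.31). Increases larger after DEGS1 siRNA were those of FZD5 (0.93), VCAN (0.95) and NTN4 (1.21).

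Decreases larger after DEGS1 siRNA were those of its target DEGS1 (-3.61), SLC51B (-0.48), SGPP1 (-0.77), SLC44A1 (-2.18) and DGAT2 (-0.56). Members of the ATF4 list with such a difference were MTHFD2 (-1.23), SLC7A1 (-0.73) and SLC3A2 (-0.66). SLC40A1 (-0.98), ARG1 (-2.19), TNFSF4 (-1.33), IL6ST (-1.14), ORM1 (-0.79), GINS1 (-1.17) and KRT23 (-0.69) also fell more after DEGS1 siRNA.

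Decreases larger after SPTLC123 siRNA were those of its target SPTLC1 (2.04), GLTP (0.93), SOAT2 (0.62), APOC3 (1.00), PLOD2 (2.01), ERO1A (0.80) and ADM (0.53). SOD2 (1.89), CPOX (2.25), ISG20 (1.47), DONSON (1.73) and UVRAG (0.66) also fell more after SPTLC123 siRNA. So did STK24 (1.86), PDHX (1.80) and NBN (1.76).

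In control probe sets outside the gene measurements, the actin 3' minus 5' log2 difference was above the level of the scramble arrays in 3 arrays. These were SPTLC123 replicate 3 (1.15), DEGS1 replicate 2 (1.31) and DEGS1 replicate 3 (1.25). They are spread unequally over the knockdown groups, so knockdown and array quality are mixed in the differences listed above.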

How the results depend on the processing

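The mean change of the 130 genes named by rule kept its sign in every alternative run that tested them. Most were chosen for a clear change on the same arrays, so a kept sign is largely built in. Genes chosen after their values were seen were not followed there. One knockdown's own direction turned in some alternatives for DEGS1, SLC44A1, FGFR4, SESN3, GPC3, TF, MUC13, STK24, SOD2 and MT1M. Averaging probe sets ended the call of 27 named genes, among them also LSS, CAT, VEGFA, TFRC, IFIT5, S1PR2, ACER3 and PDK4. The number of genes called, 1997, was 988 when the 6 knockdown arrays were fitted as 1 group (592 higher, 396 lower), 819 at an adjusted p threshold of 0.01 (465 and 354), 3019 with array weights (1530 lower) and 903 without the 3 arrays with weak 5' signal (544 and 359). Leaving out single arrays gave 1101 to 3032 genes, with 632 to 1496 higher and 460 to 1536 lower. The 184 genes changed at least 2-fold became 102 when the probe sets of each gene were averaged, 116 with a pseudocount of 16, 118 without the 3 arrays and 287 when every probe set was tested, and 146 to 223 when single arrays were left out. The 418 genes that differed between the knockdowns became 1020 with array weights, 66 in the 2-group fit, 149 at the 0.01 threshold, 83 without the 3 arrays, where DEGS1 is 1 array, and 228 to 918 without single arrays. Of the 82 genes changed at least 2-fold in each knockdown, 68 were called without the 3 arrays and 75 to 82 without single arrays. With the actin difference as a covariate 1698 genes were called, and 452 of them differed between the knockdowns. Quantile normalization and median centring left 1908 and 1831, and the share called higher was 59.9% with median centring against 52.5%. The causes of these shifts were not tested. With the replicate number as a block 2106 genes were called, 1840 of them among the 1997; same-numbered arrays correlated at -0.28 to 0.54 in their deviations, so the numbers were not taken as pairing the samples. Levels near background, as for SI in scramble, limit how exactly a fold is known.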

Other observations

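The 51 genes that passed on the average of both knockdowns but moved in opposite directions are not part of the shared response. Those with the largest mean change, given by size, were NCEH1, a hydrolase of cholesterol esters (0.05 after SPTLC123 and -2.02 after DEGS1 siRNA), and USP46, a deubiquitinating enzyme (0.33 and -2.22). DPYD, which breaks down pyrimidines, stood at -1.93 and 0.38, and PGGT1B, a subunit of a protein prenyltransferase, at -1.47 and 0.07. All of these rest on 1 of the knockdowns.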
